A study of Mus musculus with 2 samples.

Results

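DNase I footprints are short stretches inside open chromatin that the enzyme cuts less than their surroundings. The regions described here are the wide ones that 2 libraries hold in common: 8741 autosomal intervals of 20 bp or more in each library, overlapping by at least 50% of both lengths. They were chosen by width and by overlap, so their widths, their number and their presence in both libraries are a description and not a finding. They made up 5.83% of the 150044 autosomal footprints of replicate 1 and 3.99% of the 218918 of replicate 2. They are set against 12337 shared narrow footprints of under 12 bp, paired in the same way.

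The tissue was left cerebral cortex from female mice of the F1 hybrid B6CASTF1/J, 4 days old, and the assay DNase-seq. The labels give 2 biological replicates and no treatment, so there is 1 group and no comparison between conditions. The tissue was taken whole, so its cell types cannot be told apart in these files. Promoters of cortical genes were open in both libraries at 5 of 9 excitatory neuron markers (among them Tbr1, Mef2c and Fezf2), 1 of 4 interneuron markers (Gad1), 1 of 3 astrocyte markers (Slc1a3) and 1 of 3 oligodendrocyte lineage markers (Pdgfra). None of the 4 microglial, 3 endothelial and 3 hindbrain markers had a shared promoter DNase I hypersensitive site (DHS). The read depth of the libraries is unknown from the files, and the intervals given below cover counting error only, since regions of the same libraries are not replicates.

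A protein that stays on DNA through the DNase I digestion leaves a footprint about as wide as its contact, so long contacts leave wide ones. CTCF, a protein with a row of zinc fingers, reads a long site and anchors chromatin loops and domain boundaries; some of its sites carry a second, upstream stretch read by its outer fingers. At promoters, activators of CpG-rich start sites (SP and KLF zinc fingers, the CREB and ATF family, NRF1) and the TATA-binding machinery bind close to the start. At tRNA genes TFIIIC binds an internal B box and recruits the initiation factor TFIIIB upstream of the gene.

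The sequences of single members show what most of them hold. In each line below the footprint of both libraries is printed with 8 bases on either side, along the strand of the match, from the mm10 (GRCm38) reference, and capitals mark the letters that match a consensus. The first 4 are members with the CTCF core in which the footprint also covers a stretch before the match, and the next 4 are members in which it ends close to the match; in each set they had the highest signal values of the DHSs that hold them among unmasked members outside exons with an exact match. They lie in intergenic sequence at chr8:20122167-20122228 (plus strand) and chr7:73618495-73618557 (minus, 76780 bp upstream of Chd2), in the promoter of Faf2 at chr13:54621653-54621715 (minus) and in an intron at chr4:151141701-151141765 (minus; the nearest start site is that of Camta1). The short ones lie in the promoters of Kif1b (chr4:149307894-149307940, minus), Rsad1 (chr11:94549270-94549314, minus), Scap (chr9:110333240-110333289, plus) and Fem1a (chr17:56255938-56255981, minus). The place of these examples is not typical of short members. Among all members of the 2 classes, as defined below, 7.995% of extended and 10.2% of short ones lay at promoters. The difference was -2.18 points, with an interval of -4.24 to 0.219 that spans 0.
CTCF extended, intergenic: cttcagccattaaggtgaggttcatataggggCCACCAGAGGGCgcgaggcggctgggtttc
CTCF extended, upstream of Chd2: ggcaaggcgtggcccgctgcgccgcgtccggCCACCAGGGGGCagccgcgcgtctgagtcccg
CTCF extended, Faf2: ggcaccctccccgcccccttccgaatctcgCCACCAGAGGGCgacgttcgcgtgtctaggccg
CTCF extended, Camta1: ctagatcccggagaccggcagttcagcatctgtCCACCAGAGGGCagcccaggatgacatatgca
CTCF short, Kif1b: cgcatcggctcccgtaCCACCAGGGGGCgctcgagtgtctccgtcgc
CTCF short, Rsad1: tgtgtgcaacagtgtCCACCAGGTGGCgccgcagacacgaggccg
CTCF short, Scap: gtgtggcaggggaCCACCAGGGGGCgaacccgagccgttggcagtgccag
CTCF short, Fem1a: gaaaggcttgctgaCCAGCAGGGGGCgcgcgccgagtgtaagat

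The next set holds members with the other letters that set wide footprints apart, again those with the highest DHS signal values that wholly hold a match off exons: SP and KLF letters in the promoter of Nup107 (chr10:117792850-117792899, plus), CRE letters in that of Gtf3c1 (chr7:125707787-125707842, plus), NRF1 letters at chr6:117879508-117879544 (minus, 16449 bp from the nearest protein-coding start, that of Zfp239), a nuclear factor I palindrome upstream of Bahcc1 (chr11:120231670-120231715, minus, 1254 bp from the start site) and a B box in a tRNA gene near Polr3e (chr7:120917557-120917611, plus).
SP/KLF, Nup107: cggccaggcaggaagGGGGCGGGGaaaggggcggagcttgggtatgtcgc
CRE, Gtf3c1: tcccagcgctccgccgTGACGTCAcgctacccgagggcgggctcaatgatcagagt
NRF1, chromosome 6: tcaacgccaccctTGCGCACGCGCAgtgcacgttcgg
NFI, upstream of Bahcc1: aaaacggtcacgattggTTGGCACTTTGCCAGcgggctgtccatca
B box, tRNA gene: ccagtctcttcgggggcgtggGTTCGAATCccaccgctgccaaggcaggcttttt

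The wide footprints were largely the same set of places in replicate 1 and a smaller share of those in replicate 2. The 8741 members were 82.9% (exact 95% interval 82.1 to 83.6) of the 10549 wide footprints of replicate 1 and 29.5% (28.9 to 29.99) of the 29663 of replicate 2. Of the narrow footprints, 10.8% of the 114755 in replicate 1 and 8.65% of the 142630 in replicate 2 were shared. Median member width was 27 bp in replicate 1 (quartiles 23 and 31, largest 63) and 31 bp in replicate 2 (27 and 39, largest 84), and 77.0% of members were wider in replicate 2. Both edges fell within 3 bp of each other in 47.7% of members. In replicate 1 the widths were spread about evenly from 20 to 29 bp, with 592 members at 20 bp, 596 at 23 bp and 572 at 29 bp. In replicate 2 the highest count was 590, at 30 bp. Both libraries had a second, smaller group above 40 bp. Members with CTCF letters (at most 1 mismatch) were many at most of these widths, but not at the largest. From 53 to 65 bp replicate 1 had none, and replicate 2 had 1 at 53 bp, 1 at 59 bp and 2 at 60 bp.

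**Figure D1:**
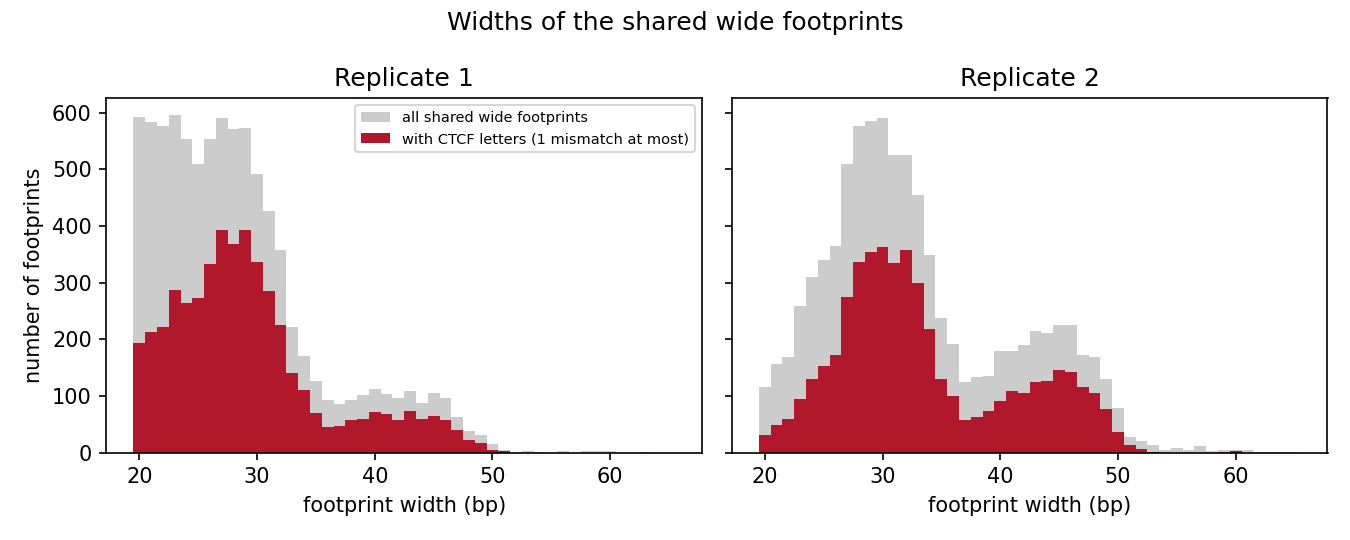
Number of shared wide footprints at each width from 20 to 65 bp in replicate 1 and replicate 2. Grey bars count all members of that width and red bars those with CTCF letters, at most 1 mismatch, in the central 40 bp. The members wider than 65 bp in replicate 2 are not drawn. Replicate 1 is about level from 20 to 29 bp, replicate 2 has its highest count, 590, at 30 bp, and both have a smaller group above 40 bp, with more members in replicate 2.

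At the lower limit of the rule the change was gradual. The 680 pairs whose narrower interval was exactly 20 bp had a promoter share of 51.6% and an exact CTCF match in 14.0%, and the 762 pairs at 19 bp, just outside, had 55.2% and 9.32%.

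Shared wide footprints lay mostly away from promoters. Within 1 kb of a protein-coding transcription start site (TSS) lay 2555 of them, 29.2% (28.3 to 30.2), against 60.01% (59.1 to 60.9) of the shared narrow ones, a difference of -30.8 points (Newcombe 95% interval -32.1 to -29.5). Introns held 30.7% of wide and 17.1% of narrow footprints, intergenic sequence 34.4% and 17.0%, and exons outside promoters 5.64% and 5.87%. Replicate 2 alone did not show the promoter difference: among all of replicate 1's own footprints the promoter share was 30.7% of wide and 46.2% of narrow ones, but among all of replicate 2's it was 47.5% of wide and 46.4% of narrow ones. The members had CTCF letters with at most 1 mismatch in 55.4% of their replicate 2 windows, against 13.5% of the 20922 wide footprints of replicate 2 that had no wide partner in replicate 1. The promoter share was 29.2% of members and 55.1% of the partnerless ones; 64.1% of the partnerless ones overlapped a footprint of some width in replicate 1.

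Around start sites the wide footprints were one-sided. Of the promoter members, 1957 of 2555 (76.6%, 74.9 to 78.2) lay upstream of the TSS, against 47.0% (45.9 to 48.2) of the narrow promoter footprints, a difference of 29.6 points (27.5 to 31.5). The 100 bp before the TSS held 12.8% of all wide and 13.5% of all narrow footprints, a difference whose interval, -1.61 to 0.242 points, spans 0. The 100 bp after it held 3.54% of wide and 12.7% of narrow footprints. The median position of promoter members was 54 bp upstream (quartiles 137 and 4 bp upstream).

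**Figure D2:**
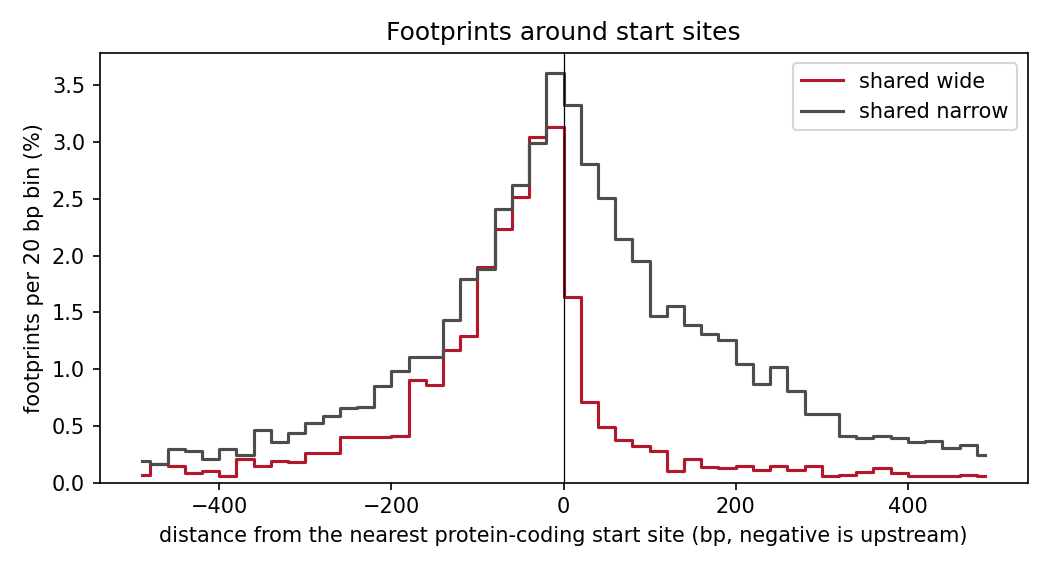
Share of shared wide (red) and shared narrow (grey) footprints per 20 bp bin, in percent of each class, against distance from the nearest protein-coding TSS in bp. Both profiles climb towards the TSS from upstream, and beyond it the wide one drops to 3.54% over the first 100 bp against 12.7% for the narrow one.

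Compared with narrow footprints, the members lay more often in shared DHSs and in calls of high signal, and nearer the DHS centre. A shared DHS held 90.3% (89.7 to 90.9) of the wide footprints and 74.9% (74.1 to 75.7) of the narrow ones; away from promoters the shares were 87.5% and 59.4%. The difference of 15.4 points was 28.5 points among replicate 2's own footprints and 32.5 points among replicate 1's. The 25% of DHS calls with the highest signal values in replicate 1 held 65.1% of wide and 45.7% of narrow footprints, and the highest 25% in replicate 2 held 45.3% and 31.4%. These differences, 19.4 and 13.9 points, were 29.6 points among replicate 1's own footprints and 28.7 points among replicate 2's. Footprints outside every DHS call count against these shares. In calls, median signal values were 1.471 (wide) and 1.354 (narrow) in replicate 1, and 2.765 and 2.418 in replicate 2. In replicate 2 distal members had a median of 2.174, below the 2.86 that bounds its highest 25%, and promoter members 6.983. Wide footprints with no wide partner had medians of 1.153 in replicate 1 and 3.584 in replicate 2. Within its DHS a wide footprint sat near the middle: 76.1% of wide and 39.7% of narrow footprints had their centre in the central 33.3% of its length, and for distal ones the shares were 85.2% and 35.4%. The DHSs that held distal wide footprints had a median width of 200 bp, and those with distal narrow ones 240 bp. Of the 25283 autosomal shared DHSs, 7414 (29.3%) held a member; 6978 held 1, 396 held 2 and 40 held 3 or more. GC content in 150 bp had a median of 55.3% around wide and 62.7% around narrow footprints. Masked repeats covered most of the bases of 6.49% of wide and 5.50% of narrow ones, a difference of 0.983 points (0.334 to 1.65) that was -0.343 points among replicate 1's own footprints. The lowest false discovery rate of the cut rate, from which the footprints were derived, was under 0.001 at 93.2% of wide and 78.4% of narrow footprints in replicate 1 and at 96.5% and 89.5% in replicate 2; a longer interval has more bases in which to hold a low value.

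The letters in a window of fixed length, 40 bp about the centre, were then compared, since a longer interval holds more matches by its length alone. The search covered 35 consensus sequences on both strands. Those searched by name included CTCF, REST, NRF1, ZNF143, RFX, NFI, MEF2, SRF and DR1. Among promoter factors the letters were AANATGGCG for YY1, CCAATCAG for NFY, GGGGCGGGG for SP and KLF factors, ACCGGAAGT for ETS factors, TGACGTCA for the CRE, CTCGCGAG for KAISO, TCACGTGA for USF, TTCCCGCC for E2F and TATAAAAG for the TATA box. The B box of TFIIIC was GTTCGANTC. Among signal-dependent and developmental factors they were GCGTGGGCG for EGR, TTCNNGAA for HSF, GCCNNNGGC for TFAP2, TTCCNGGAA for STAT and ATGCNAAT for POU factors. AP1 dimers were searched as TGANTCA. Neurogenic bHLH factors (NEUROD) were searched as CAGATGG, and a generic E-box, which other bHLH factors read, as CAGCTG. SOX proteins were searched by ACAAAGG, a high-mobility-group site. LIM homeodomain proteins (LHX) were given the homeodomain core TAATTA. The nuclear receptor ROR was searched by TAGGTCA, its monomer site. TEAD factors, partners of the YAP co-activator, were searched by CATTCCA. ZFX, a zinc finger factor of CpG-rich start sites, was searched by AGGCCT. RUNX factors, which carry a runt domain, were searched by TGTGGTT. The zinc finger GATA factors were searched by AGATAAG. A match is a description of the letters, not evidence of the bound protein. The share was higher in wide windows for 10 of the 35 (28.6%) and lower for 7 (20%), counting those whose interval of the difference left out 0.

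CTCF letters stood far above the rest. The exact 12-letter core was in 2108 wide windows, 24.1% (23.2 to 25.03), and in 62 narrow windows, 0.503% (0.386 to 0.644), a difference of 23.6 points (22.7 to 24.5). Without replicate 1, over replicate 2's own wide and narrow footprints, the difference was 10.1 points (9.74 to 10.4). Over all footprints of any width, 2.44% of the windows in replicate 1 and 1.88% of those in replicate 2 held it. With 1 mismatch allowed, a step added once the values were known, 55.5% of wide and 1.72% of narrow windows matched; with 2 mismatches it was 70.9% and 6.67%. Distal members carried most of it: 70.7% (69.5 to 71.8) of distal wide windows matched with at most 1 mismatch, against 3.47% of distal narrow ones, while among promoter footprints the shares were 18.8% (17.3 to 20.4) and 0.554%. The most distinctive 8-mers of the wide windows were ACCAGGGG (5.34% of wide and 0.211% of narrow windows), ACCAGGTG (3.17% and 0.146%) and CAGGGGGC (11.7% and 0.559%), all of them letters of the CTCF core.

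**Figure D3:**
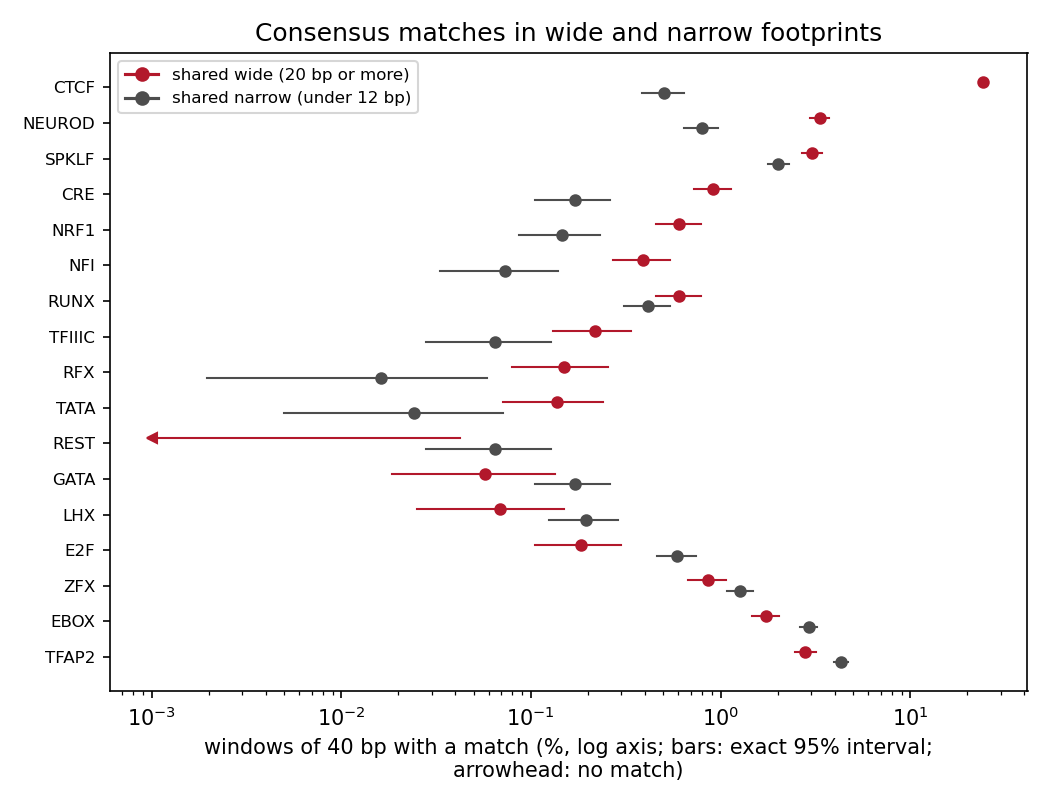
Share of 40 bp windows with a match, in percent on a log axis, for shared wide (red) and shared narrow (grey) footprints, for the 17 consensuses whose difference has an interval that leaves out 0; bars are exact 95% intervals and an arrowhead means no match. CTCF, at 24.1% of wide and 0.503% of narrow windows, has the widest gap.

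Seen from the other side, CTCF letters in shared DHSs were mostly under footprints of this kind. Shared DHSs held 2386 exact CTCF matches, of which 1862 (78.0%, 76.3 to 79.7) overlapped a shared wide footprint, 10 (0.419%) a shared narrow one and 2296 (96.2%) some footprint in both libraries. With the DHSs cut into 4 groups of equal size by signal value, the share under a wide member was 52.2% in the lowest group, then 79.6%, 89.0% and 86.7%. No other consensus came near: NFI followed with 31 of 112 matches (27.7%, 19.6 to 36.9), then RFX with 14 of 85 (16.5%). For CRE, 87 of 654 matches (13.3%) lay under a wide member although 52.1% lay under some footprint in both libraries, and for NRF1 79 of 733 (10.8%) although 64.3% did. SP and KLF letters had 304 of 5535 matches under a wide member (5.49%).

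Left edges at CTCF letters fell into 2 groups. In the 4851 members with at most 1 mismatch, read along the strand of the match, the left edge lay a median of 5 bases before the match in replicate 1 (quartiles 4 and 7) and 6 in replicate 2 (5 and 18), and 5 was the most common value in both. A left edge 4 to 6 bases before the match was found in 58.7% of them in replicate 1 and 53.3% in replicate 2. A second, separate group had its left edge 20 to 24 bases before the match, 12.5% in replicate 1 and 21.5% in replicate 2, with few in the 10 to 15 bases between (3.59% and 4.49%). The right edge lay a median of 10 bases after the match in replicate 1 and 12 in replicate 2, with a single broad peak at 12. Since the window is 40 bp, only matches near the footprint's centre enter these values.

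The second group makes the widest CTCF members. In 738 members (15.2% of the 4851) the left edge lay 15 or more bases before the match in both libraries, and in 3184 (65.6%) it lay 9 or fewer before it in both; the class differed between the libraries in the rest or fell between. Another 568 (11.7%) were short in replicate 1 and extended in replicate 2, against 83 (1.71%) the other way round. Median widths were 41 bp in replicate 1 and 45 bp in replicate 2 for extended members, and 27 and 30 bp for short ones.

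Extended members more often held certain letters in the bases before the match. The 6-mer TGCAGT stood within 25 bases before the match in 173 of the 738 extended members (23.4%) and in 103 of the 3184 short ones (3.23%), a difference of 20.2 points (17.2 to 23.4), most often beginning 17 bases before the match. The 8-mers CATGCAGT (7.45% of extended and 0.220% of short members) and TGCAGTAC (6.78% and 0.220%) extend it. These letters were picked for their difference, so the values describe these members. Extended members had an exact core match less often, 33.6% against 46.3% of short ones (difference -12.7 points, -16.4 to -8.77). They lay in masked repeats more often, 14.0% against 5.28% (difference 8.68 points, 6.22 to 11.5), and in stronger DHSs: median signal values were 1.49 for extended and 1.20 for short members in replicate 1, and 2.56 and 2.06 in replicate 2. The part of this signal difference in the width called was not tested.

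In neighbouring pairs of members with CTCF letters, the letters mostly lay on the same strand. In all, 838 members (9.59%) had another within 150 bp, in 438 neighbouring pairs with a median centre distance of 71 bp. Both members held CTCF letters with at most 1 mismatch in 26 pairs, and in 23 of these the letters lay on the same strand. The 40 bp windows of close neighbours overlap and can hold the same match, which then lies on the same strand in both. Such pairs were not set apart, so this count does not give the orientation of separate sites.

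Several promoter consensuses were more frequent in wide windows too. CRE letters, bound by the CREB and ATF family, were in 80 wide windows (0.915%) and 21 narrow ones (0.170%), a difference of 0.745 points (0.544 to 0.975). NRF1 letters were in 53 (0.606%) and 18 (0.146%), a difference of 0.460 points (0.295 to 0.654) that was 0.844 points without replicate 1. SP and KLF letters were in 266 (3.04%) and 249 (2.02%), 1.02 points (0.595 to 1.47), and 4.47 points (4.20 to 4.75) without replicate 1. Over all footprints of any width in replicate 1 and replicate 2, CRE letters were in 0.332% and 0.340%, NRF1 letters in 0.283% and 0.269% and SP and KLF letters in 2.15% and 2.42%. Of the members with CRE letters 77 of 80 were at promoters, with SP and KLF letters 243 of 266 and with NRF1 letters 47 of 53. They sat a median of 24 bp (CRE), 45 bp (SP and KLF) and 25 bp (NRF1) upstream of the TSS, in footprints that were short for the class: median widths were 23.5, 22 and 23 bp in replicate 1 and 30, 27 and 28 bp in replicate 2. With members limited to 25 bp or more in both libraries, SP and KLF letters were less frequent in wide windows than in narrow ones, by -0.762 points (-1.13 to -0.359).

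Among promoter members alone, with the CTCF-like windows set aside (more than 2 mismatches in both classes; 1731 wide and 7033 narrow), the gap was larger. SP and KLF letters were in 12.2% of wide and 2.83% of narrow windows, CRE letters in 4.22% and 0.242%, NRF1 letters in 2.66% and 0.199% and NFY letters (the CCAAT box) in 1.68% and 0.611%. TATA letters were in 11 wide windows (0.635%) and no narrow one. A floor of 3 narrow windows would be a share of 0.0427%, which is not the end of an exact interval. All 12 members with TATA letters were at promoters. NFI letters were in 10 wide windows and no narrow one, and RFX letters, the X box, in 6 and none. The leading 8-mers of these promoter windows, CGTCATCA (1.62% of wide and 0.0569% of narrow windows), ACGTCATC (1.91% and 0.0995%) and GACGTCAC (4.16% and 0.228%), share the CGTCA of the CRE.

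**Figure D4:**
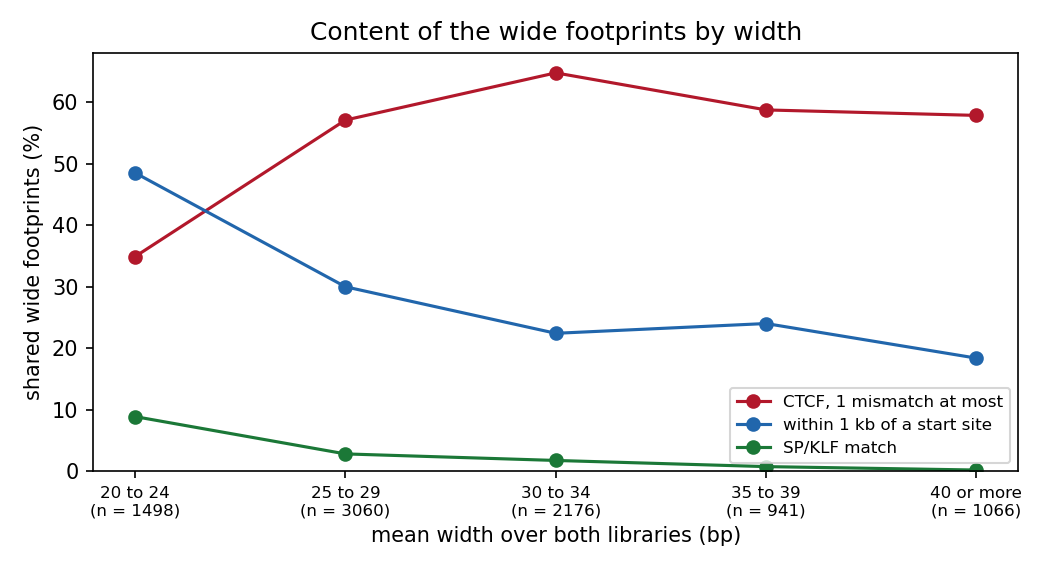
Percent of shared wide footprints with CTCF letters (at most 1 mismatch, red), within 1 kb of a TSS (blue) and with SP and KLF letters (green), by mean width over both libraries in bp; the number in each class stands under it. The CTCF share is 34.9% at 20 to 24 bp and 64.8% at 30 to 34 bp, while the SP and KLF share is 8.88% at 20 to 24 bp and 0.188% at 40 bp or more.

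Width sorted these groups. From 20 to 24 bp mean width upwards in 5 classes, the promoter share was 48.5%, 30%, 22.4%, 24.02% and 18.4%. CTCF letters with at most 1 mismatch were in 34.9% (32.5 to 37.4), 57.1%, 64.8% (62.7 to 66.8), 58.8% and 57.9%. SP and KLF letters were in 8.88%, 2.81%, 1.75%, 0.744% and 0.188%, and NFI letters in 1.20%, 0.327%, 0.138%, 0.213% and 0.0938%.

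Away from promoters, the 817 wide footprints that were not CTCF-like stood apart in other ways. NFI letters, the palindrome of the nuclear factor I dimer, were in 23 of them (2.82%) against 9 of 4481 narrow windows (0.201%), a difference of 2.61 points (1.67 to 3.99). RFX letters were in 7 (0.857%) and 2 (0.0446%). Both differences rest on setting the CTCF-like windows aside: over all distal footprints NFI letters were in 24 of 6186 wide windows (0.388%) and 9 of 4933 narrow ones (0.182%), with an interval of the difference of -0.00193 to 0.413 points, and the RFX interval was -0.0494 to 0.196 points. The palindromes sat at the middle of the footprint: over all members the match centre lay a median of 1.5 bp from the footprint centre for NFI in both libraries, and 1.5 bp in replicate 1 and 1 bp in replicate 2 for RFX. For CTCF it was 3.25 and 4 bp. The E-box, the SOX letters and the TFAP2 letters lay off centre, at 9.5, 13.2 and 7.5 bp in replicate 1. Of the 8-mers with the largest ratios of wide to narrow share in the 817 windows, ACAGCGCC was in 31 wide (3.79%) and 11 narrow windows (0.2455%). GTACTGCA was in 12 (1.47%) and 5 (0.112%), and is TGCAGTAC, found before extended CTCF matches, read on the other strand. These 8-mers were picked for their difference. Whether such windows hold CTCF sites, or parts of the REST element, was not tested.

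The B box of tRNA genes, where TFIIIC binds, was in 14 of these distal windows (1.71%) and 5 narrow ones (0.112%), a difference of 1.60 points (0.896 to 2.75). With the CTCF-like windows kept, 15 distal wide (0.242%) and 5 distal narrow windows (0.101%) held it, and the interval, -0.0248 to 0.309 points, spans 0. Over all members it was in 19 wide and 8 narrow windows, a difference of 0.152 points (0.0521 to 0.279) whose interval also reached below 0 with an overlap of 80%, with narrow footprints under 9 bp, with GC standardised and among promoter footprints, and 18 of the 19 lay on a tRNA gene of the RefSeq annotation. In all, 61 wide members (0.698%) and 15 narrow ones (0.122%) overlapped a tRNA gene, a difference of 0.576 points (0.403 to 0.779). A longer interval overlaps a gene more often by its length alone, and this was not adjusted for. Of 386 autosomal tRNA genes, 52 (13.5%) had a wide member. The 61 fell into 2 arrangements. In replicate 1, 30 began before the gene, a median of 47.5 bp upstream, and ended a median of 1 bp before its first base, and 31 began inside it, a median of 44 bp from its start, and ended a median of 71 bp from it. In replicate 2 the upstream ones began 49 bp before the gene and ended a median of 5.5 bp inside it, and the inner ones ran from 41 to 74 bp. The median tRNA gene is 72 bp long, so the inner footprints cover its 3′ part, in which the B box lies.

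Other letters that were higher need care. NEUROD letters were in 3.34% of wide and 0.794% of narrow windows (difference 2.55 points, 2.15 to 2.97, and 0.717 points without replicate 1), but in 233 of the 292 wide windows (79.8%) they overlapped a CTCF match of at most 1 mismatch, whose letters can spell them. With CTCF-like windows set aside the difference was -0.00607 points (-0.297 to 0.405). RUNX letters were in 0.606% and 0.413%, with an interval (0.000307 to 0.403 points) that reaches nearly 0.

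Some letters were rarer in the wide windows. TFAP2 letters were in 2.80% of wide and 4.32% of narrow windows (difference -1.52 points, -2.01 to -1.01), the E-box in 1.73% and 2.93% (-1.20, -1.60 to -0.790), ZFX letters in 0.858% and 1.27% and E2F letters in 0.183% and 0.592%. The TFAP2, E-box, ZFX and E2F differences changed sign when the footprint interval itself was searched. A wide interval holds more matches by its length alone, so that search does not compare like with like. The TFAP2 difference was 0.0811 points (-0.355 to 0.532) once the narrow windows were standardised to the GC content of the wide ones. REST letters, the element of the repressor of neuronal genes, were searched only as a whole consensus of 15 letters, so parts of the element were not counted. The whole element was in no wide window and in 8 narrow ones (0.0648%). Finding no wide match allows a share of up to 0.0343% (3 windows), and the exact interval ends at 0.0422%. Of 164 REST matches in shared DHSs, 3 lay under a wide member and 26 under some footprint in both libraries.

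Counting every consensus, 70.9% of the members were CTCF-like (at most 2 mismatches), another 8.49% held one of the other letters, and 20.7% (19.8 to 21.5) held none; among the narrow footprints the shares were 6.67%, 14.9% and 78.4%. Of the promoter members 45.6% held none of the letters, and of the distal ones 10.4%.

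At single genes, 2453 of 20780 autosomal protein-coding genes (11.8%) had at least 1 shared wide footprint within 1 kb of a TSS. Of these, 2091 had 1, 318 had 2, 43 had 3 and 1 had 4. The gene with 4 was Hnrnpul1, which encodes an RNA-binding protein of the hnRNP U family. Its members, on chromosome 7, had centres 456, 118 and 56 bp upstream and 6 bp downstream of the TSS. They were 23, 47, 29 and 23 bp wide in replicate 1 and 26, 49, 41 and 30 bp wide in replicate 2. Its strongest promoter DHS had a signal value of 3.77 in replicate 1, and of 13.7 in replicate 2; the first member held E2F letters and the other 3 none of the letters searched. The next genes in order of count and then of the alphabet, each with 3, were 6030458C11Rik, Ap5b1, Arid1a, Arl6ip6, Atp6v1g2, Cacna1h, Cdc27, Cep41, Chd6, Cited2 and Cpsf6.

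Most of these rows of footprints held no CTCF letters. Among the 12 genes only Ap5b1, a subunit of an adaptor complex, and Cacna1h, a T-type calcium channel, had members with CTCF letters of at most 1 mismatch, 2 of 3 and 1 of 3. Cited2, a transcriptional co-regulator of CBP and p300, had members 161, 83 and 16 bp upstream of the TSS that were 25, 49 and 22 bp wide in replicate 1 and 27, 52 and 32 bp wide in replicate 2, with 3 narrow footprints beside them. Cdc27, a subunit of the anaphase-promoting complex, had members 167, 115 and 58 bp upstream. They were 21, 37 and 34 bp wide in replicate 1 and 21, 39 and 36 bp wide in replicate 2. Their edges nearly coincide between the libraries. Atp6v1g2, a subunit of the vacuolar proton pump, had members 95 and 21 bp upstream and 56 bp downstream.

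The gene lists are small and are read beside the background of 11.8%. Cytosolic ribosomal protein genes had a wide footprint at 20 of 76 (26.3%, 16.9 to 37.7), with 2 each at Rpl24 and Rpl26. Nuclear respiratory chain genes had one at 17 of 82 (20.7%, 12.6 to 31.1), with 2 each at Ndufa13 and at Uqcrc1, a subunit of complex III; the member of Uqcrc1 49 bp downstream of its TSS held NRF1 letters. Cholesterol synthesis genes had 5 of 19, among them Dhcr7 and Fdft1. The shares were also taken over the 11830 genes with a shared promoter DHS, which held 2431 of the 2453 genes with a member: 27.8% for ribosomal protein genes, 22.7% for respiratory chain genes and 26.3% for cholesterol synthesis genes, against 20.6% over all of them. The interval of the cholesterol synthesis genes (9.15 to 51.2% of all 19) spans the background of 11.8%. No intervals were taken for the shares over genes with a shared promoter DHS. Whether the ribosomal protein and respiratory chain genes exceed the 20.6% there is therefore not shown.

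The REST target, activity-regulated, upper-layer, deep-layer and intraflagellar transport lists had intervals that span the background of 11.8% over all genes. Every gene of these lists had a shared promoter DHS, except in the deep-layer list, where 7 of 10 did. Among genes with such a DHS the shares with a wide member were 12%, 11.76%, 18.2%, 14.3% and 13.6% in that order, against 20.6% over all of them. REST target genes had a wide footprint at 3 of 25 (12%, 2.55 to 31.2), and all 25 had a shared promoter DHS. A shared narrow footprint was found at 16 of the 25 (64%), against 27.8% of all 20780 genes. Only 11830 of all genes had a shared promoter DHS, and the narrow share among those was not computed, so the 2 shares are not like for like. At Snap91, a clathrin adaptor of synapses, the member lay 18 bp upstream of the TSS with SP and KLF letters and an E-box. Activity-regulated genes had 2 of 17, Dusp1 and Egr1 with 2 members each. Upper-layer regulators had 2 of 11, among them Pou3f2, and deep-layer regulators 1 of 10, Tle4 with 2. Intraflagellar transport and Bardet-Biedl genes had 3 of 22, with 2 members at Ift46 and 1 at Bbs12. Clustered protocadherin genes, whose promoter choice is known to use CTCF, had 1 of 56, Pcdhac1, with a member 63 bp upstream of its TSS that was 2 mismatches from the CTCF core; 3 of the 56 had a shared promoter DHS. Hox genes (39) and olfactory receptor genes (1086) had none, but no Hox gene and only 1 olfactory receptor gene had a shared promoter DHS.

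The 5 widest members held no CTCF letters in their central 40 bp. The widest, in an intron at chr14:104715795-104715878 in replicate 2, measured 84 bp there and 63 bp in replicate 1, in a DHS whose signal value was 4.82 in replicate 1, and 5.85 in replicate 2. The others were an intronic one on chromosome 12 (80 bp in replicate 2, 50 bp in replicate 1), one 67 bp upstream of the Ccdc66 TSS with CCAAT-box and TFAP2 letters (68 and 60 bp), an intergenic one near Eef2k (65 and 60 bp) and one 520 bp upstream of a Ctnna3 TSS (64 and 58 bp). All 5 were 4 or 5 mismatches from the CTCF core, and none held masked repeat bases.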

How the data were processed

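The 2 libraries were processed separately by the authors into mm10 files, with no pooling, per the file headers. Which tools, versions and settings were used is "not given in the sources used here". Each deposited footprint file holds intervals of at least 7 bp and the constant 0.01. The deposited peak lists hold the authors' DHS signal, with no stated scale, so it was never compared between libraries. The deposited FDR file holds the authors' q-values, listed under 0.05. The stricter peak list was used; the lenient one was an alternative.

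Footprint pairs, places and letters were computed with Python 3 and numpy against GRCm38 and GENCODE M21 basic; tRNA genes and sequences are from RefSeq's GRCm38. A shared DHS holds overlapping calls of both libraries. Letters are of the reference strain, so one allele may differ. Shares carry exact 95% binomial intervals and differences Newcombe intervals; no p-value was computed. Overlap, letter search and intervals were tested on simulated data.

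The members, gene lists, consensuses and rules for naming were chosen with earlier results of these data known. Named genes are the 12 with the most members and the first 2 of each list, ties by alphabet; named footprints are the 5 widest and, for the 8 largest consensus differences, the one in the strongest DHS. CTCF mismatches, edge classes, the tRNA comparison and 8-mers without CTCF were added after seeing the data. Sex chromosomes were left out, and some named genes and 1 consensus are not reported here.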

Additional observations from a re-analysis of the deposited data

Results flagged for a closer look

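The sex chromosomes are outside every comparison above. Chromosome X held 147 footprints that were wide and shared, of 189 wide ones in replicate 1 and 608 in replicate 2. Chromosome Y, in animals labelled female, held 1, of 2 wide footprints in replicate 1 and 11 in replicate 2. Each count is above 0 in data that no comparison used, and the source of the footprints on chromosome Y was not tested.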

How the results depend on the processing

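The number of shared wide footprints was 5612 with an overlap of 80% and 5571 with a limit of 25 bp. Leaving out a replicate drops the overlap: the counts were 10549 to 29663, the promoter difference was -15.5 to 1.14 points, reversed without replicate 1, and the repeat difference was -0.343 to 2.22 points, reversed without replicate 2 and weaker at 25 bp (0.725 points). The other promoter, shared DHS and signal differences kept their direction and side of 0 under every alternative run, but not their size. The promoter difference was -14.05 points with GC standardised and -38.15 points at 25 bp. The shared DHS difference was 4.525 points with the lenient DHS list (99.3% of wide and 94.7% of narrow footprints) and 32.5 points without replicate 2. Consensuses with a higher share numbered 10, but 17 without replicate 1, 26 in the footprint interval itself, 6 with GC standardised and 3 among distal footprints; those with a lower share numbered 7, but 0 in the interval, 1 among promoter footprints, 11 among distal ones and 3 with CTCF-like windows left out. Differences changed sign for SP/KLF at 25 bp (-0.762 points) and among distal footprints (-0.338), for CRE among distal footprints (-0.0123), for NEUROD without CTCF-like windows (-0.00607), for RUNX (-0.0256 to 0.137 over the 2 left-out replicates), TFAP2 (-0.450 to 0.505) and E2F (-0.155 to 0.0624) without replicate 1, and for TFAP2 (1.86), the E-box (0.746), ZFX (0.386) and E2F (0.100) in the interval. TFAP2 did so too with GC standardised (0.0811), at promoters (0.525) and without CTCF-like windows (0.798). In the interval, wide and narrow footprints were searched over unlike lengths, so the values there do not compare like with like. The cause of the other changes was not tested. Genes with a member were 13.9% within 2.5 kb. No paired analysis was possible because there is 1 group. Read depth is unknown, and 2 biological replicates give no error between animals.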
